A study of Mus musculus with 8 samples.

Results

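Bone and tooth roots are resorbed by osteoclasts, cells that form from myeloid precursors when 2 signals from neighbouring cells reach them. The genes described here encode those signals, their receptors and one upstream hormone. RANKL (gene Tnfsf11) binds the receptor RANK (Tnfrsf11a) on the precursor and drives it to become an osteoclast, and osteoprotegerin, or OPG (Tnfrsf11b), is a soluble decoy that captures RANKL first. CSF1 (Csf1) and interleukin 34 (Il34) both bind the receptor CSF1R and keep the precursors alive and dividing. PTHrP (Pthlh) acts through the receptor PTH1R (Pth1r), and in bone this can raise RANKL and lower OPG. In the developing tooth PTHrP and PTH1R are known for their part in root formation and eruption, which needs osteoclasts to open a path through the jaw bone. The 7 genes were taken by name, and all 7 had a row among the 17631 genes of the table.

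RNA came from the apical portion of lower first molars of C57BL/6 mice at postnatal day 7.5, where the root grows. Control mice were Runx2fl/fl and mutant mice Gli1-CreERT2;Runx2fl/fl, with 4 libraries in each of the 2 groups, so both groups carried the floxed alleles of Runx2, a transcription factor of bone formation, and only the mutant group carried the recombinase. Tamoxifen, which switches the recombinase on, was injected at postnatal day 3.5 at a dose of 1.5 mg per 10 g of body weight, under a treatment protocol given alike for all libraries. Recombination is limited to cells in which Gli1 is active and their descendants, and the tissue holds other cells too. No group carried the recombinase without floxed Runx2, so effects of the recombinase itself and of Runx2 recombination cannot be told apart. No label says that libraries came from separate animals, and p-values then cover the spread among these libraries alone, which may be technical.

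The authors' deposited table gives 1 mean of normalised signal per group and gene, without values per library, so no spread or standard error can be printed and overlap of the groups cannot be judged. Where a pair of means is given below, the control comes before the mutant. Read depth is unknown; the group means summed to 1050684 in control and 955256 in mutant molars. The targeted gene, Runx2, had a mean of 105.5 in control and 65.1 in mutant molars in the authors' deposited table, with an adjusted p of 0.0646 that did not pass the threshold used here. Gli1, the gene whose activity drives the recombinase, had 38.8 in control and 19.95 in mutant molars, with an adjusted p of 0.0228 in the authors' deposited table. Only the mutant group carried Gli1-CreERT2, so an effect of that construct on Gli1 and one of Runx2 recombination cannot be told apart. Throughout, a gene was called when the adjusted p in that table, a Benjamini-Hochberg value over all 17631 genes, was under 0.05. Sex is not among the sample details used here. The Y-linked genes Ddx3y (12.9 and 25.6), Uty (4.67 and 8.58) and Eif2s3y (7.66 and 12.7) had higher means in the mutant. Their adjusted p in the authors' deposited table was 0.0486, 0.104 and 0.0849, so Ddx3y was called. Whether the groups differ in sex, and its part in the values below, was not tested.

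None of the 7 genes was called, against a background of 0.788% of all genes (139 of 17631). The mean of Tnfsf11 was 3.31-fold lower in the mutant, the greatest difference among the 7, and it came nearest to the threshold. The means of Tnfrsf11b, Il34, Pthlh and Pth1r were also lower, and those of Csf1 and Tnfrsf11a were higher. At an adjusted p under 0.1 the only 1 of the 7 to pass was Tnfsf11, where 3.64% of all genes passed. At an unadjusted p under 0.05, 2 of the 7 were lower (Tnfsf11 and Tnfrsf11b) and 0 were higher, where 9.4% of all genes were lower and 9.89% higher. The median log2 ratio of the 7 was -0.25, beside 0.0033 over all genes. Scaling both columns to equal sums would add 0.137 to every log2 ratio, or 0.0201 when the abundant ameloblast markers are left out of the sums, and all 7 genes kept their direction under both.

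**Figure D1:**
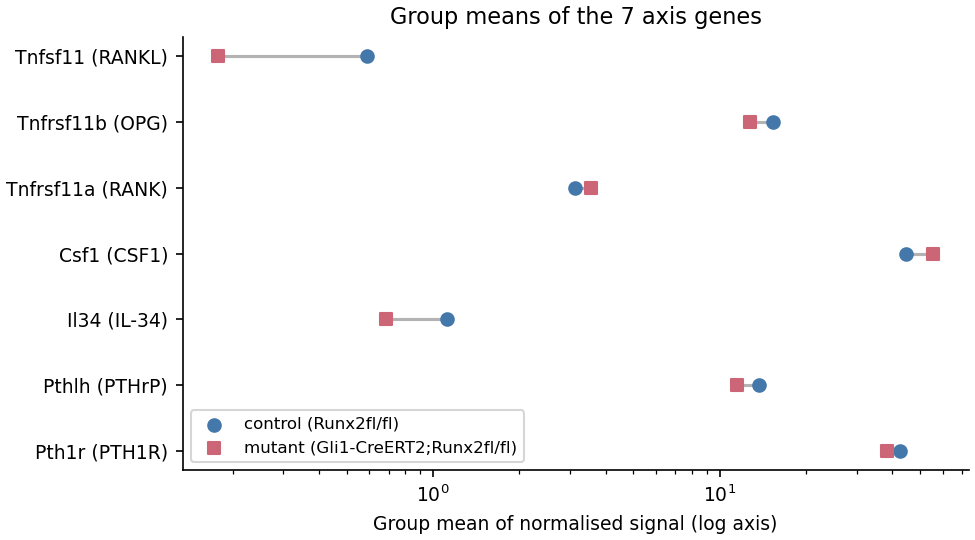
Group mean of normalised signal (x axis, logarithmic) of each of the 7 genes in control (circles) and mutant (squares) molars, 1 mean of 4 libraries per point, without error bars because the table gives none. Tnfsf11 lies lowest, at 0.590 in the control and 0.178 in the mutant, and the other genes differ by less.

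Tnfsf11 lies on chromosome 14 from 78277445 to 78308043 on the minus strand (GRCm38, GENCODE M21, protein-coding). In the authors' deposited table its mean was 0.590 in control and 0.178 in mutant molars, so that the mutant mean was 30.2% of the control mean (log2 ratio -1.73). The unadjusted p of 0.0018 ranked 383 of 17631, and the adjusted p of 0.0825 in the authors' deposited table missed the threshold, which took an unadjusted p of at most 0.00039. RANKL transcript was thus scarce in both groups. Its mean lay at percentile 15.8 of all genes in the control and 2.75 in the mutant. It was 19.3 times the lowest mean of any gene in the control and 7.24 times that in the mutant. Among the 2294 genes whose higher mean was over 0.3 and up to 1, where Tnfsf11 falls, 1 gene was called (0.0436%). In such tissue, fewer cells of a type and less RNA per cell cannot be told apart, and this holds for every gene below.

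The start of Tnfsf11 is shown because this gene had the greatest difference of the 7 and the product of the targeted gene, Runx2, is a transcription factor. The 250 bases before the transcription start annotated by RefSeq (chr14:78308044-78308293, GRCm38.p6, minus strand, read 5′ to 3′ along the gene) are printed with a TATA box match and a CCAAT box match in capitals.

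Tnfsf11: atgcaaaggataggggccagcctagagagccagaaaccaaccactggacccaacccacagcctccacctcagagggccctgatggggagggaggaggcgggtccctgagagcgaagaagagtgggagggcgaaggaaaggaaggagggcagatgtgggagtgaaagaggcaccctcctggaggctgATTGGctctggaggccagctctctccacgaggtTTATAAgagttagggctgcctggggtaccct

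The TATA box was searched as TATAA and the CCAAT box as CCAAT, each on both strands. TATAA begins 30 bases before the start, overlapping a match on the other strand that begins 31 bases before it, and CCAAT lies on the opposite strand from 64 to 60 bases before it. A core hexamer of RUNX factors, TGTGGT on either strand, has no match in this window. Other forms of the RUNX site, and bases outside the window, were not searched. Over the 32851 windows of the same length in the RefSeq table, 14.05% hold that hexamer, 22.8% TATAA and 33.85% CCAAT. RefSeq windows were found for 5 of the 7 genes (7 windows, 3 of them for Pth1r), and the hexamer matched in 0 of the 7 windows. Tnfrsf11b and Il34 had none in the table.

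Tnfrsf11b, the OPG gene (chromosome 15, 54250619 to 54278484, minus strand), was far better covered. Its mean was 15.4 in control and 12.8 in mutant molars in the authors' deposited table, which is 1.20-fold lower (log2 ratio -0.27), with p of 0.0258 before and 0.199 after adjustment. The decoy receptor and its ligand thus had lower means in the same group, by unequal amounts. The ratio of Tnfsf11 to Tnfrsf11b, computed within each column, was 0.0384 in the control and 0.0140 in the mutant. Put the other way, OPG signal was 26.0 times RANKL signal in the control and 71.55 times in the mutant. The balance was therefore 2.75-fold lower in the mutant (log2 -1.46). This is less than the log2 ratio of -1.73 of Tnfsf11 alone, because the lower Tnfrsf11b mean (log2 -0.27) works against it. Divided by exonic length (2236 bases for Tnfsf11, 2818 for Tnfrsf11b), the ratio was 0.0484 in the control and 0.0176 in the mutant, with the same change between groups. A common scaling of a column cancels in this ratio, but the low Tnfsf11 mean weighs on it: with 0.1 added to both means the change was -1.04 in log2, and with 1 added it was -0.18. The change of the balance was not tested, because a test needs values per library.

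Tnfrsf11a, which encodes RANK (chromosome 1, 105780718 to 105847981, plus strand), had a mean of 3.14 in control and 3.55 in mutant molars in the authors' deposited table. The difference, 1.13-fold higher, had an adjusted p of 0.614 there. The receptor gene and the ligand gene thus had means in opposite directions, and neither was called. Ligand signal as a share of receptor signal per exonic length was 50.3% in the control and 13.45% in the mutant.

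**Figure D2:**
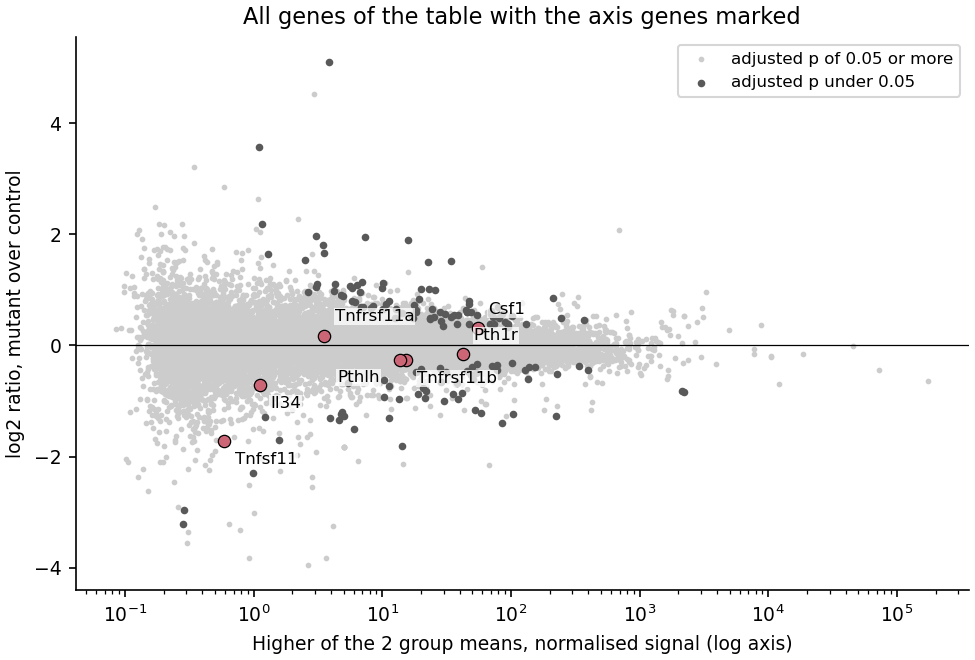
Log2 ratio of mutant over control (y axis) against the higher of both group means (x axis, logarithmic) for all 17631 genes, 1 point per gene, with the 139 called genes in dark grey and the 7 axis genes in red. Tnfsf11, at a log2 ratio of -1.73, lies in the low range where ratios of all genes scatter widely, and Csf1 and Pth1r lie where they scatter little.

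Csf1, the main ligand of CSF1R (chromosome 3, 107741048 to 107760469, minus strand), had a mean of 44.7 in control and 55.45 in mutant molars. It was 1.24-fold higher (log2 ratio 0.31), with an adjusted p of 0.337 in the authors' deposited table. Il34, the second ligand (chromosome 8, 110741829 to 110805924, minus strand), differed in the other direction. The authors' deposited table lists 1.12 for the control and 0.683 for the mutant, 1.64-fold lower (log2 ratio -0.72), with an adjusted p of 0.323. Interleukin 34 is best known from skin and brain, and its transcript was scarce here, at percentiles 22.05 and 17.3 of all genes in control and mutant. Per exonic length, Il34 signal was 6.76% of Csf1 signal in the control and 3.32% in the mutant. Their shared receptor gene, Csf1r, had means of 130.2 and 140.4 in control and mutant, with an adjusted p of 0.661 in the authors' deposited table. Neither ligand was called, and whether the 2 ligands differed from each other in response was not tested.

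Pthlh, the PTHrP gene (chromosome 6, 147252101 to 147264183, minus strand), had a mean of 13.7 in control and 11.5 in mutant molars. In the authors' deposited table the difference of 1.19-fold (log2 ratio -0.25) had p of 0.0615 before and 0.281 after adjustment. Pth1r, its receptor (chromosome 9, 110722085 to 110747145, minus strand), had 42.6 and 38.2 (log2 ratio -0.16, adjusted p of 0.592 in the authors' deposited table). Ligand and receptor means were thus both lower by little in the mutant. The ratio of Pthlh to Pth1r was 0.322 in control and 0.301 in mutant molars, 1.07-fold apart, where the ratio of Tnfsf11 to Tnfrsf11b was 2.75-fold apart. With the trend that GC content and length set across genes subtracted, Pth1r stood at log2 0.0020, so its lower mean gives no direction.

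The order of the 7 levels was compared per kb of exonic length, since longer transcripts collect more reads. In the control Pth1r was highest at 14.57, followed by Pthlh and Csf1 at 8.47 each and Tnfrsf11b at 5.455. Then came Il34 at 0.5725, Tnfrsf11a at 0.525 and Tnfsf11 at 0.264. The receptor of PTHrP thus led and RANKL came last. In the mutant the order was Pth1r (13.1), Csf1 (10.5), Pthlh (7.10), Tnfrsf11b (4.53), Tnfrsf11a (0.593), Il34 (0.349) and Tnfsf11 (0.0797). Csf1 and Pthlh, and Il34 and Tnfrsf11a, are the neighbours whose order differed between the groups, and without values per library it cannot be said which neighbours differ beyond their spread.

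Other genes of these pathways were read from 4 lists: RANK signalling, CSF1R signalling, PTH1R signalling and factors that can induce RANKL. Of the 85 measured genes 0 were called in the authors' deposited table, and 13 (15.3%) had an unadjusted p under 0.05, 7 higher and 6 lower, where 19.3% of all genes did (9.89% higher and 9.4% lower). The same shares of all genes stand beside the counts of each list below. Of the 24 RANK signalling genes 0 were higher and 3 lower at that level, with a median log2 ratio of -0.06 that equal sums over all genes would turn to 0.08 and equal sums without the ameloblast markers to -0.04. These 3 were Rela, an NF-kappaB subunit (63.6 and 54.7 in control and mutant), the kinase gene Src (95.4 and 82.4), and Traf3 (37.6 and 31.75), an adaptor that restrains the alternative NF-kappaB route. In that table of the authors their adjusted p was 0.167, 0.190 and 0.249. With the GC and length trend subtracted, their log2 ratios went from -0.22, -0.21 and -0.24 to -0.07, -0.08 and -0.22. The adaptor Traf6, which carries the RANK signal into the cell, had log2 ratio -0.17, and Nfatc1, the osteoclast master transcription factor, had -0.06. Lgr4, which encodes another receptor that can bind RANKL, had means of 76.95 and 67.8 in control and mutant (adjusted p of 0.454 in the authors' deposited table).

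Of the 14 CSF1R signalling genes 2 were higher and 0 lower at an unadjusted p under 0.05, and the median log2 ratio was 0.14. Pik3r1, a regulatory subunit of PI3-kinase, had 180 in control and 202.8 in mutant molars. Mitf, a transcription factor used by osteoclasts, had 4.94 and 6.23, and Cbl, a ubiquitin ligase acting on CSF1R, had 60.7 and 75.8 without passing that level. Their adjusted p in the authors' deposited table was 0.232, 0.250 and 0.266. With the GC and length trend subtracted, their log2 ratios went from 0.17, 0.34 and 0.32 to 0.05, 0.29 and 0.25. Means of the ligand Csf1 and of 10 of the 14 genes of the list, the receptor Csf1r among them, were higher in the mutant, none called.

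Of the 24 PTH1R signalling genes 3 were higher and 2 lower at that level, and the median was 0.0030. Creb1, which encodes the cyclic AMP-responsive factor CREB, had 29.3 in control and 41.2 in mutant molars (adjusted p of 0.1185 in the authors' deposited table). Mef2c, a transcription factor that drives sclerostin in osteocytes, had 39.65 and 48.55, and Gnaq, a G protein subunit, 63.2 and 70.6. The 2 lower genes were Crtc2 (37.6 and 30.5) and Gna11 (133.2 and 119.1). With the GC and length trend subtracted, the log2 ratio went from 0.29 to 0.10 for Mef2c and from -0.16 to -0.06 for Gna11. Gnas, whose protein couples PTH1R to cyclic AMP, had log2 ratio -0.08. Means of this list were split evenly, 12 higher and 12 lower, with 13 and 11 under equal sums without the ameloblast markers, 19 and 5 under equal sums over all genes, and 12 and 12 with the GC and length trend subtracted.

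Of the 23 measured inducers of RANKL 2 were higher and 1 lower at an unadjusted p under 0.05, with a median log2 ratio of 0.10. Postn, which encodes the matrix protein periostin, had the lowest p of them, at 200.2 in control and 326.7 in mutant molars (adjusted p of 0.0590 in the authors' deposited table). It is also a marker of the dental follicle and periodontal ligament. With the GC and length trend subtracted, the log2 ratio of Postn went from 0.71 to 0.53. Wnt5a, a WNT that acts on osteoclast precursors, had 203.8 and 239.2 (adjusted p of 0.179), and the cytokine gene Il11 1.68 and 1.11 (adjusted p of 0.210), both from the authors' deposited table. Vdr, the vitamin D receptor through which RANKL is induced in osteoblasts, had log2 ratio 0.10. Il1b was scarce, at 0.216 and 0.435, and Il1a, Il6 and Tnf were not analysed here.

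**Figure D3:**
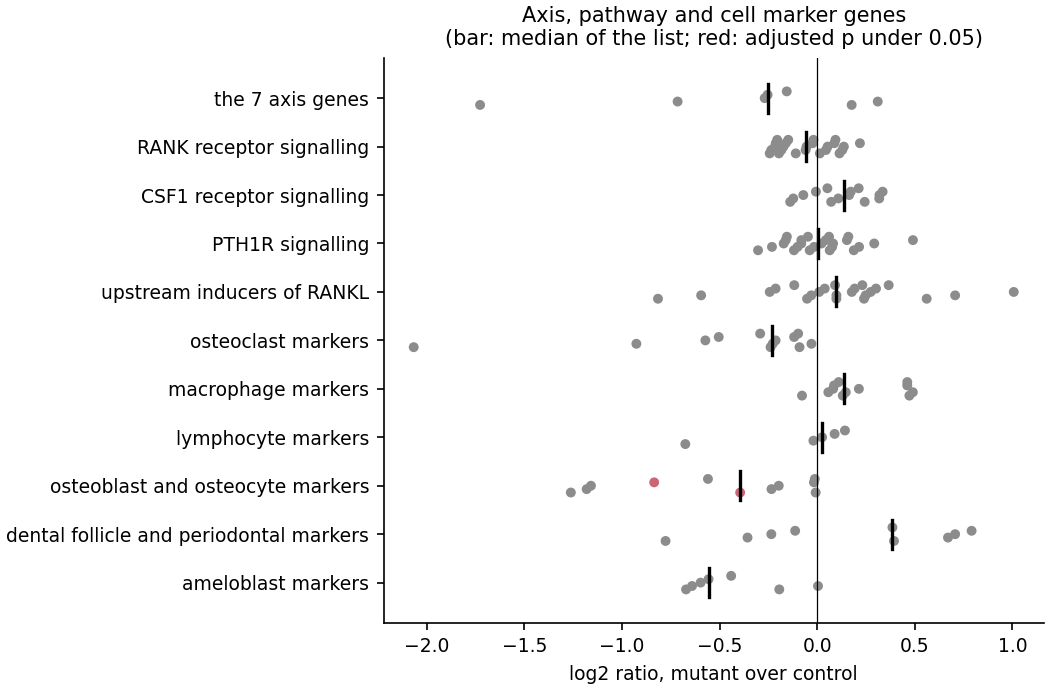
Log2 ratio of mutant over control (x axis) for the 7 axis genes, the 4 pathway lists and 6 lists of cell markers, 1 point per gene, with a bar at each list's median; vertical offsets within a list carry no value. The 2 red points are the called genes Sp7 and Bglap, and the 12 osteoclast markers lie to the left of 0, where equal sums over all genes would move 4 of them to the right of it and equal sums without the ameloblast markers 0.

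Markers of the cells that make or receive these signals moved as follows, and their part in the results above was not tested. Counts at an unadjusted p under 0.05 stand beside 9.89% of all genes higher and 9.4% lower. All 12 measured osteoclast markers had lower means in the mutant as deposited, and likewise 12 of 12 with equal sums without the ameloblast markers, but 8 of 12 with equal sums over all genes and 10 of 12 with the GC and length trend subtracted (median log2 ratio -0.23 as deposited). Their means summed to 396.3 in control and 344.1 in mutant molars, the largest part from Car2 (156.2 and 134.8). None was called, and 2 were lower and 0 higher at an unadjusted p under 0.05. These were Siglec15, a receptor on osteoclasts (0.352 and 0.0840), and Oscar, an osteoclast co-stimulatory receptor (0.465 and 0.2445), both scarce like Tnfsf11. Acp5 and Ctsk, which encode the osteoclast enzymes TRAP and cathepsin K, were well covered, at log2 ratios of -0.29 and -0.12 (adjusted p of 0.527 and 0.6765 in the authors' deposited table). Mmp9, covered like Acp5 (38.7 and 26.0), had log2 ratio -0.57 (adjusted p of 0.280 in the authors' deposited table). Calcr was not analysed here.

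Macrophage markers, of cells that share CSF1R with osteoclast precursors, leaned the other way. Of 12 measured, 11 had higher means in the mutant (median log2 ratio 0.14, and 0.31 with the GC and length trend subtracted), and the sum was 392.5 in control and 468.2 in mutant molars. None was called, and 4 were higher at an unadjusted p under 0.05 (Mrc1, Cx3cr1, Aif1 and Adgre1) and 0 lower. Mrc1 had 81.1 and 111.7 (adjusted p of 0.0876 in the authors' deposited table). Csf1 and Csf1r means were higher in the same group.

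Osteoblast and osteocyte markers, named for cells that make RANKL and OPG in bone, had lower means in the mutant in 11 of 11 cases as deposited (median log2 ratio -0.39), but in 8 of 11 with equal sums, with or without the ameloblast markers. The tissue was the apical molar, and which of its cells carried these transcripts was not tested. Of the 11 markers, 2 passed the threshold, where 0.788% of all genes did. They were Sp7, a transcription factor of osteoblasts (154.8 and 117.7, adjusted p of 0.0447), and Bglap, the osteocalcin gene (2234 and 1252, adjusted p of 0.0484), in the authors' deposited table. Bglap can share reads with near-identical copies, so its value is uncertain. With the GC and length trend subtracted, neither was called (adjusted p from the recomputed mgcv trend of 0.160 for Sp7 and 0.333 for Bglap), while the log2 ratio went from -0.39 to -0.30 for Sp7 and from -0.84 to -0.62 for Bglap. At an unadjusted p under 0.05, 4 genes of the list were lower and 0 higher, with Spp1 (91.3 and 38.05) and Ibsp (179.5 and 80.4) beside Sp7 and Bglap. The adjusted p of Spp1 and Ibsp was 0.106 and 0.121 in the authors' deposited table. Their log2 ratios were -1.26 and -1.16 as deposited, and -1.285 and -1.196 with the GC and length trend subtracted. Sost, the sclerostin gene of osteocytes, had 1.16 and 0.513, low like Tnfsf11. Summed means of this list were 50120 in control and 48266 in mutant molars, most of it from Col1a1 (45713 and 45190).

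Lymphocytes also make RANKL, and their markers were low here. The 5 genes read summed to 8.58 in control and 9.07 in mutant molars (median log2 ratio 0.03), 0 were called and 0 had an unadjusted p under 0.05. Most of that sum was from Cd4 (5.58 and 6.16), which is not restricted to lymphocytes, and Cd3e, Cd3d, Cd8a and Nkg7 were not analysed here. Dental follicle and periodontal markers had a median log2 ratio of 0.39, and 0.09 with the GC and length trend subtracted, with 5 of 9 means higher, 0 called, and 5 higher and 1 lower at an unadjusted p under 0.05. The lower gene was Spon1 (82.3 and 48.05, adjusted p of 0.0608 in the authors' deposited table). With that trend subtracted, Spon1 passed the threshold (adjusted p from the recomputed mgcv trend of 0.0490). Ameloblast markers had a median of -0.56, with 6 of 7 means lower, 0 called, and 0 higher and 2 lower at an unadjusted p under 0.05.

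**Figure D4:**
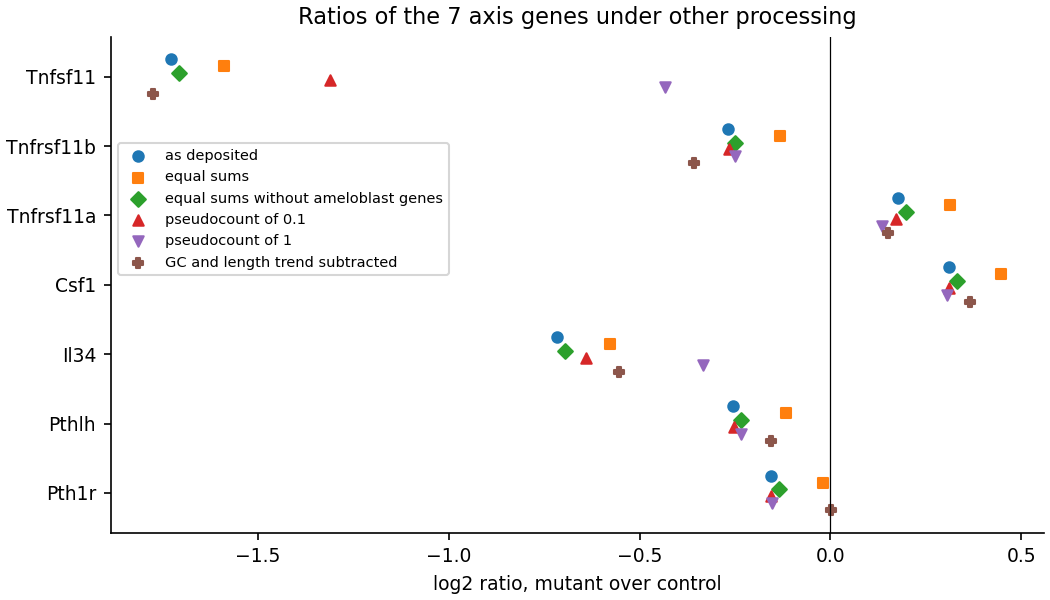
Log2 ratio of mutant over control (x axis) of each of the 7 genes as deposited and under 5 other choices of scaling, pseudocount or trend subtraction, 1 marker per choice. Tnfsf11 runs from -1.77 to -0.43, with both pseudocounts to the right of the deposited value, and Pth1r reaches 0 when the GC and length trend is subtracted.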

How the data were processed

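RNA of 8 libraries (4 per group) was sequenced by the authors. Per the submitters' processing notes, the tools were STAR 2.6.1d and Partek and the build was mm10 (mouse); what each was used for is not stated there. Per the file headers, the deposited table holds a least-squares mean of normalised signal per group, a total signal, a ratio, a signed fold change (a score below 0 where the mutant is lower), a p-value and a step-up adjusted p-value per gene. How the signal was normalised is not given in the sources used here. Genes that share the lowest mean differ in length, so the signal is not divided by length.

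In all 17631 genes the total equalled 4 times the sum of both means, the ratio equalled the quotient of the means, and the adjusted p-values equalled Benjamini-Hochberg values (tolerance 1e-06). The table has no values per library (0 such columns), so the planned edgeR test was replaced by the planned second route, the authors' deposited p-values. Log2 ratios, within-column ratios and levels per kb of exon were computed from the deposited signal (Python 3.11.15, pandas 2.3.3, numpy 2.4.6). Gene positions and exonic lengths came from GENCODE M21, with 17562 genes (99.6%) matched. Alternatives were other thresholds, scalings and pseudocounts, a filter on low means, and a trend of the p-values' z scores on GC content and length (mgcv 1.9.3 in R 4.3.3, tested on simulated data) that took up 25.9% of their variance.

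The members and lists were chosen with earlier results of these data known. Named were the 7 genes, Runx2, called genes of the 4 pathway lists, and the 3 genes of lowest p in each. Gli1, Ddx3y, Uty, Eif2s3y, Csf1r, Traf6, Nfatc1, Lgr4, Crtc2, Gna11, Gnas, Vdr, Il1b and the single marker genes were named after their values were seen. Some genes of the lymphocyte list are not reported here, and its values were computed without them.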

Additional observations from a re-analysis of the deposited data

How the results depend on the processing

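No paired analysis was possible because the table holds 1 mean per group, although both groups have libraries numbered 2 to 5; leaving out a library was not run for the same reason. Of the 7 genes 0 were called, 1 (Tnfsf11) at an adjusted p under 0.1 and 2 at an unadjusted p under 0.05. Of the 85 pathway genes 0 were called, 1 (Postn) at an adjusted p under 0.1, 13 at an unadjusted p under 0.05, and 1 (Postn) when genes with a higher mean under 1 were left out before adjustment, where fewer genes were tested. With the GC and length trend subtracted, 0 of the 85 were called, and Postn had an adjusted p from the recomputed mgcv trend of 0.323. The log2 change of the Tnfsf11 to Tnfrsf11b balance was -1.46 as deposited, -1.04 with a pseudocount of 0.1, -0.18 with a pseudocount of 1, and -1.42 with the GC and length trend subtracted, an alternative chosen after seeing the data. Pth1r reversed to 0.0020 with that trend subtracted; the cause was not tested. The other 47 of 48 values of the 7 genes under alternatives kept their direction. Pseudocounts and the filter on low means cannot change a direction, so only the scalings and the trend subtraction could have done so. Tnfsf11 ran from -1.77 to -0.43, Csf1 from 0.30 to 0.45 and Il34 from -0.72 to -0.33. Tnfsf11, with a higher mean under 1, was not among the genes on which the trend was fitted. With the trend subtracted from the z scores, the p of Tnfsf11 went from 0.0018 to 0.00066 before adjustment and from 0.0825 to 0.104 after it. In that setting 34 genes of the table were called in place of 139. Depth is unknown, so no limit for the scarce genes Tnfsf11 and Il34 can be given.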

Other observations

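RANKL, RANK and OPG belong to the TNF superfamily of ligands and receptors, and the other members of that family were read as a description. They were taken by symbol after the data had been seen. Without RANKL, RANK and OPG, 27 genes were measured. None of them was called in the authors' deposited table, and 6 (22.2%) had an unadjusted p under 0.05, 3 lower and 3 higher in the mutant, where 19.3% of all genes did. The median log2 ratio was 0.04. Ngfr, which encodes a neurotrophin receptor, had means of 11.8 in control and 18.9 in mutant molars, with an adjusted p of 0.0711 in the authors' deposited table. Tnfrsf12a, the receptor of TWEAK, had, in the same order, 19.6 and 12.9 (adjusted p of 0.0750 in the authors' deposited table). Eda2r, a receptor of ectodysplasin A2, was scarce at 0.157 and 0.319, and the lymphotoxin gene Ltb at 0.797 and 0.371. Tnfsf10, which encodes TRAIL, another ligand that OPG can bind, had 2.29 in control and 3.03 in mutant molars, with an adjusted p of 0.286 in the authors' deposited table. Its mean was thus on the higher side in the mutant, where that of Tnfsf11 was on the lower side.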
